A study of Mus musculus with 10 samples.

Results

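The genes described are 34 that type I interferon is known to induce, measured in regulatory T cells (Tregs), the CD4+ T cells that carry the transcription factor Foxp3 and restrain immune reactions. The genes were taken from a list of interferon-induced genes matched to the array by gene symbol. No rule on the intensities picked them, but earlier results of these data were known when they were chosen. All 34 were measured, each by 1 probe set, among 19938 genes on Affymetrix Mouse Gene ST 1.0 arrays. Tregs came from the spleens of female C57BL/6 mice of 9 to 14 weeks and were sorted on CD4 and a red fluorescent reporter of Foxp3, which every group carried. Gates on CD62L, a receptor for lymph node entry, CD69, an activation marker, and Klrg1, a receptor of differentiated lymphocytes, gave the groups. FR1 was CD62Lhi CD69- Klrg1- (2 arrays), FR2 was CD62Llo CD69- Klrg1- (2 arrays), FR3 Klrg1- was CD62Llo CD69+ Klrg1- (4 arrays) and FR3 Klrg1+ was CD62Llo CD69+ Klrg1+ (1 array). The labels call the arrays biological replicates but do not say whether they came from separate animals, so a p-value measures the spread between these arrays.

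Type I interferons bind the receptor chains Ifnar1 and Ifnar2, which activate the kinases Jak1 and Tyk2. These kinases phosphorylate Stat2, which acts with Irf9 in a complex that enters the nucleus and binds the interferon-stimulated response element in front of its target genes. The targets include sensors of viral nucleic acid, enzymes that destroy or disable viral RNA, proteins that block virus entry or release, and feedback inhibitors such as Usp18, which sits on Ifnar2 and dampens the signal. Many of these genes are also transcribed at a low level in lymphocytes of uninfected mice.

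Values are log2 intensities, so a difference of 1 is a 2-fold change. The arrays fell into 2 sets: FR1, FR2 and FR3 Klrg1- replicates 1 and 2 correlated at 0.981 to 0.992 with each other, FR3 Klrg1- replicates 3 and 4 and FR3 Klrg1+ at 0.972 to 0.982, and arrays of different sets at only 0.901 to 0.921. The labels do not name such sets. Every comparison was therefore made within a set, by 1 fit with the set as a term, and a gene was said to rise or fall where limma's adjusted p, over all 19938 genes, was under 0.05. The Treg and T cell markers averaged 11.17 to 11.64 on the arrays, against 4.96 to 5.18 for neutrophil, 5.19 to 5.74 for macrophage, 5.32 to 5.66 for conventional dendritic cell and 5.58 to 5.79 for B cell markers. NK cell markers averaged 4.08 to 4.77, erythroid markers 5.23 to 5.85 and CD8 T cell markers 6.57 to 7.19. In sorted bulk cells, fewer cells expressing a gene and less RNA per cell cannot be told apart. No member fell under percentile 25 of the genes on any grouped array, and the lowest was Mx1 at percentile 27.0.

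The interferon-stimulated response element was searched as GAAANNGAAA, on both strands, in the 300 bases from 250 before to 50 after each gene's start in RefSeq's GRCm38.p6 sequences. A window was at hand for 23 members, and 12 of these (52.2%) held a match, against 3.99% of the 27025 genes with a window. The 12 were Bst2, Ddx58, Eif2ak2, Gbp3, Ifih1, Ifit1, Ifit3, Oas1a, Oas3, Rsad2, Stat2 and Trim30a. In Ddx58, Eif2ak2 and Ifih1 the match did not lie wholly before the start. The gamma-activated sequence, an element of interferon gamma target genes, was searched as TTCNNNGAA, which reads the same on the opposite strand, and was found in 6 of the 23 (26.1%) and in 9.55% of the genes. It lay in the windows of Bst2, Eif2ak2, Ifi35, Ifit2, Isg20 and Oas1a, and the letters of both motifs can overlap. A match describes the letters of a window and was not measured as a bound site here.

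The stretches below show the matches in capitals for 2 members that fell in FR3 Klrg1- cells and for 4 that did not pass in any comparison, from the RefSeq promoter sequences, 5′ to 3′ on the gene's strand. Ifit1 lies at chr19:34640750-34640848 (+), with matches 85 and 104 bases before its start, and Ifit3, another gene of the same cluster, at chr19:34583338-34583451 (+), with matches at 122 and 156. Stat2 lies at chr10:128270248-128270320 (+), with 1 match at 222 bases. Oas1a lies at chr5:120907526-120907580 (-), with matches at 14 and 20, Oas3 at chr5:120777690-120777769 (-), with 1 at 75, and Gbp3 at chr3:142559964-142560043 (+), with matches at 39 and 45.
Ifit1: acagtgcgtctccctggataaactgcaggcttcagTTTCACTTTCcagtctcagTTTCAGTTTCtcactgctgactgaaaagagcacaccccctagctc
Ifit3: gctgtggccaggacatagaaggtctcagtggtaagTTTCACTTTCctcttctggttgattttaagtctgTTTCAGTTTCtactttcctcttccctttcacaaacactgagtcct
Stat2: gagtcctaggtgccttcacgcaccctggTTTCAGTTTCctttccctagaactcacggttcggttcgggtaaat
Oas1a: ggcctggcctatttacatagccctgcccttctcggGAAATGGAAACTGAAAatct
Oas3: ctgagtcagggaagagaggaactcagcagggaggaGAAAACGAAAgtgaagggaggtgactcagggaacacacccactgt
Gbp3: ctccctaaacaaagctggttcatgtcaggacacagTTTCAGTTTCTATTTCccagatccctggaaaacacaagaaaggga
Ifit1 and Ifit3 each hold the element as a pair of separate matches, while in Oas1a and Gbp3 the matches overlap into 1 run.

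The response genes were lowest, on average, in the CD69+ cells of the first array set. The mean of the 34 genes was 8.39 and 8.4 on the FR1 arrays, 8.29 and 8.3 on the FR2 arrays and 8.22 and 8.14 on the FR3 Klrg1- arrays of that set. On the CD69+ arrays of the second set that mean was 8.29 and 8.27 in FR3 Klrg1- and 8.31 in FR3 Klrg1+, and the sets were not compared. The median of all genes lay between 6.22 and 6.39 on the arrays. In FR3 Klrg1- cells against FR1 cells, 9 members fell (26.5%) and 2 rose (5.88%). Of all genes tested, 3.79% fell and 4.39% rose in that comparison. The median difference of the 34 genes was -0.3, against 0.02 for all genes, with 23 members below and 11 above 0.
Some cell type markers moved in the same comparison. Of the 9 measured Treg and T cell markers, 5 rose and 1 fell (median 0.49), and their mean went from 11.29 and 11.33 in FR1 to between 11.62 and 11.64 in FR3 Klrg1-. Both CD8 T cell markers were lower, with a mean of 6.99 to 7.19 in FR1 and 6.62 to 6.68 in FR3 Klrg1-, and Cd8b1 fell by 0.55 (adjusted p = 0.0154). The NK receptor gene Klrb1c rose by 1.15, and of the B cell genes Cd22 rose by 0.94 and Cd79a fell by 0.68. Klrb1c in FR1 (4.71 and 4.73) and Cd79a in FR3 Klrg1- (4.7 and 4.21) were low. Percentile 25 of all genes was 5.1 to 5.23 on the arrays of these groups. No macrophage, neutrophil, erythroid or conventional dendritic cell marker passed limma's test in this comparison. At an unadjusted p under 0.05, 1 conventional dendritic cell marker was lower and 0 markers of the other 3 lists were in either direction. The part of these markers in the members' differences was not tested.
The difference was spread unevenly over the list. In total 14 members passed in at least 1 of 4 comparisons and 20 passed in none, as the heat map shows.

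**Figure D1:**
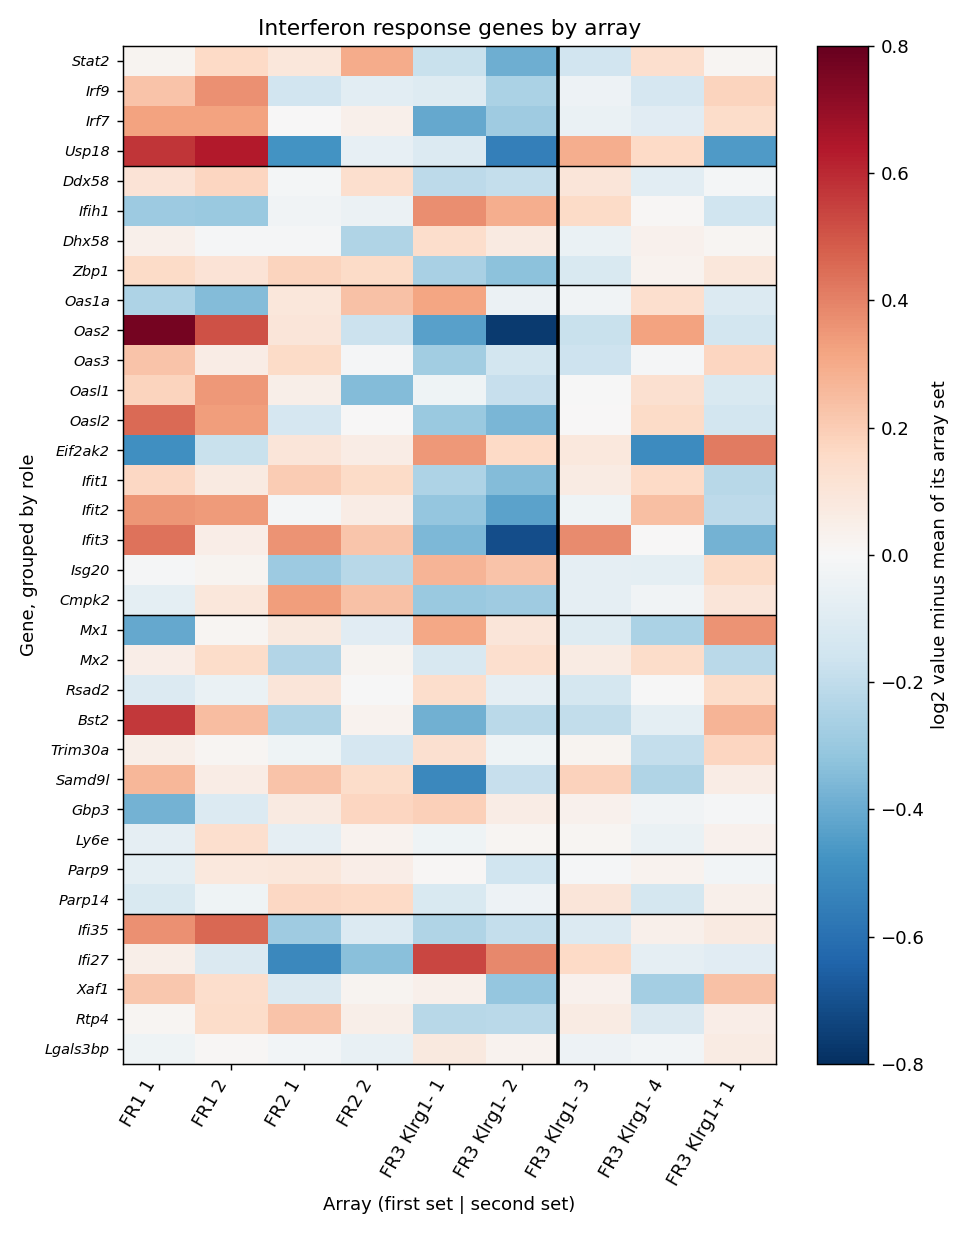
Log2 intensity of each of the 34 genes (rows, grouped by role) on each grouped array (columns), minus that gene's mean in its array set; the thick line parts the sets. Irf7, Usp18, Oas2, Oasl2, Ifit2, Bst2 and Ifi35 are red on both FR1 arrays and paler or blue on the FR3 Klrg1- arrays of the first set. Ifih1 runs the other way. Ifi27 is blue on the FR2 arrays and red on the FR3 Klrg1- arrays of that set.

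At the first step, CD62Llo FR2 against CD62Lhi FR1 cells, 3 members (8.82%), namely Usp18, Ifi35 and Oas2, fell and none rose. A step here is a comparison of sorted groups, and no cells were followed between them. The share of all genes that fell at this step was 2.3%, and 1.96% rose. The median of the 34 genes was -0.06 against 0.02, and without adjustment 11 members were lower and 4 higher at a limma p under 0.05. The share of all genes at that unadjusted threshold was not counted, so these counts cannot be set beside the shares above. The fit had 2 arrays a group in this set, and leaving out FR1 replicate 1, FR1 replicate 2 or FR2 replicate 1 left 0 of these calls, while leaving out FR3 Klrg1- replicate 3 or 4, which are in neither group, gave 5.

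The second step, from FR2 to CD69+ FR3 Klrg1- cells, gave 5 calls. Ifit3, Cmpk2 and Ifit1 fell (8.82% of the list) and Ifi27 and Isg20 rose (5.88%), where 1.94% of all genes fell and 2.81% rose. The median was -0.07 for the 34 genes and 0 for all genes. No member was called at both single steps, but some had like differences at each, such as Oas2 (-0.67 and -0.56) and Ifit2 (-0.33 and -0.39), and no test compared the steps. Leaving out FR2 replicate 1, FR2 replicate 2 or FR3 Klrg1- replicate 2 left 1 of the 5 calls, leaving out FR3 Klrg1- replicate 1 left 2, and leaving out FR3 Klrg1- replicate 3 or 4 gave 9. The 3 comparisons of FR1, FR2 and FR3 Klrg1- share their arrays, and the difference across both steps is the sum of the single steps, so their calls are not separate evidence. Of the 19 calls, 5 held whichever array was left out: Ifi27 in FR3 Klrg1- against FR2, and Oas2, Oasl2, Irf7 and Usp18 in FR3 Klrg1- against FR1. In that last comparison 7 members were called without FR1 replicate 1, 6 without FR3 Klrg1- replicate 1 and 7 without FR3 Klrg1- replicate 2. Without the set as a term 4 of the 19 calls passed (Oas2, Usp18, Ifi35 and Ifih1, each in FR3 Klrg1- against FR1), and with every row of the table tested 8 passed.

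**Figure D2:**
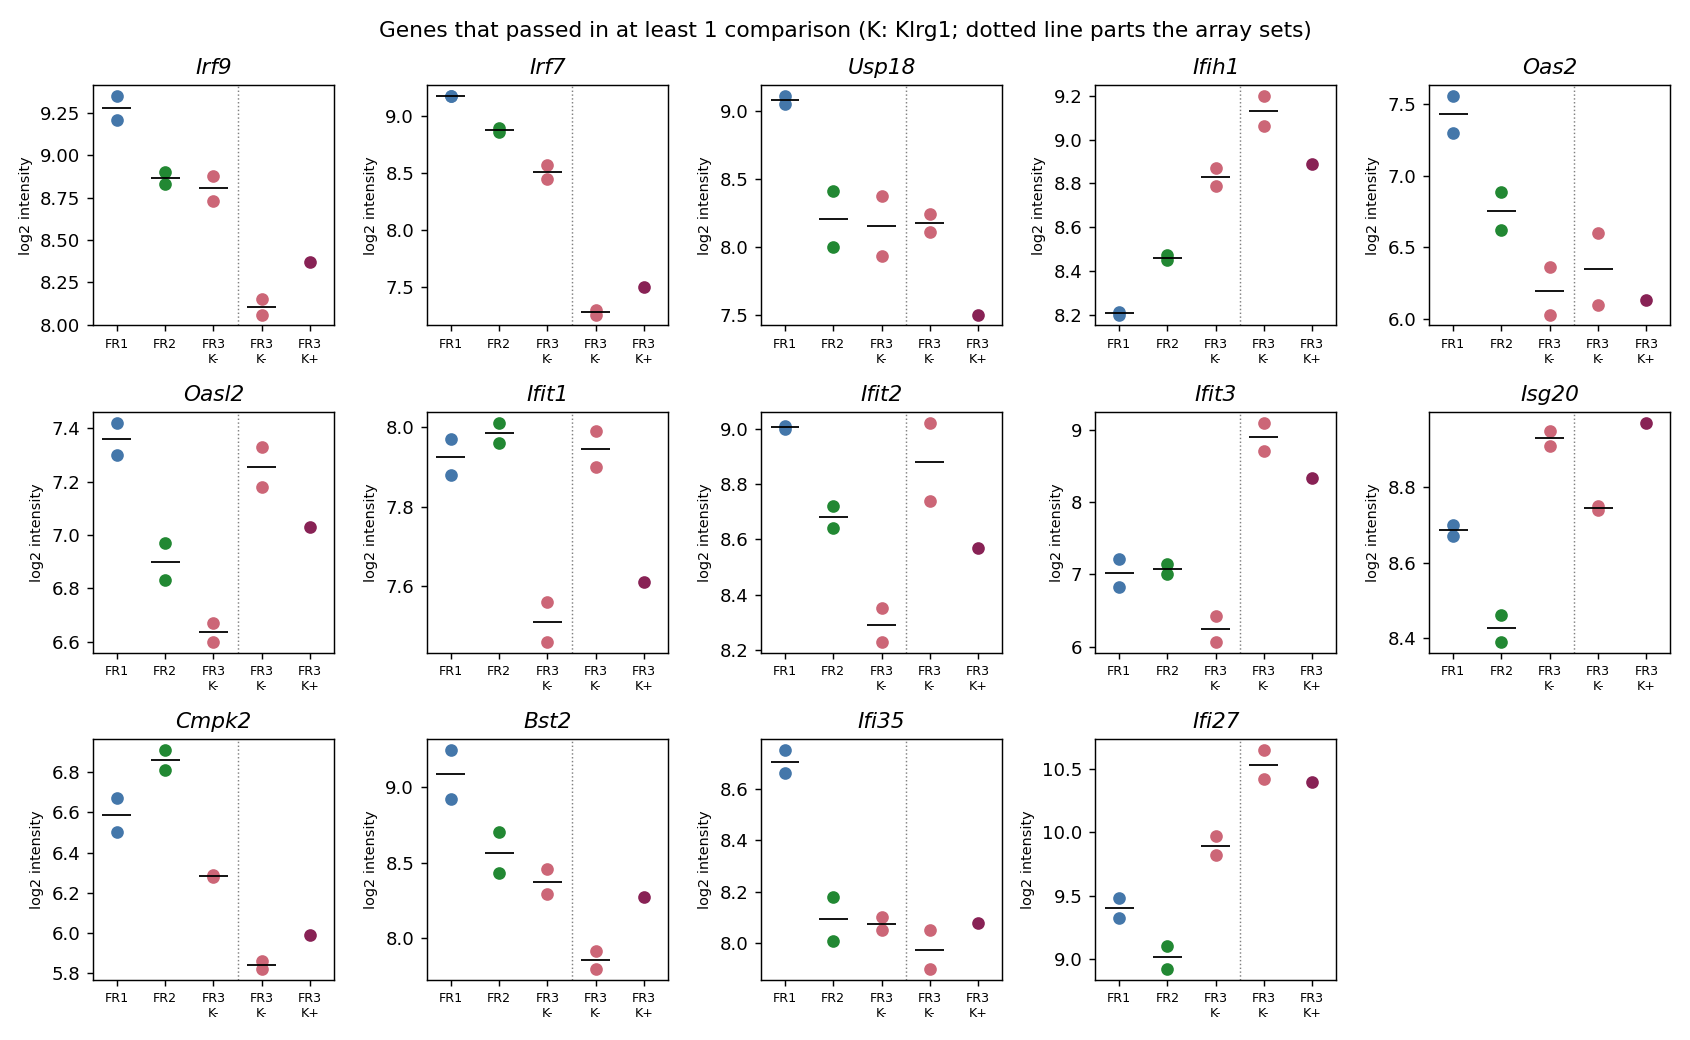
Log2 intensity of the 14 genes that passed in at least 1 comparison, by group; each point is 1 array, bars are means, and the dotted line parts the array sets, across which no comparison was made. Oas2 steps down from 7.56 and 7.3 in FR1 to 6.36 and 6.03 in FR3 Klrg1-, while Usp18 and Ifi35 drop between FR1 and FR2 and overlap between FR2 and FR3 Klrg1-.

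Of the 4 genes that carry or restrain the signal, 3 (Usp18, Irf7 and Irf9) fell between FR1 and FR3 Klrg1- cells, where 3.79% of all genes fell. Usp18, the protease and feedback inhibitor, read 9.05 and 9.11 in FR1, 8 and 8.41 in FR2 and 8.37 and 7.93 in FR3 Klrg1-. Both CD62Lhi arrays were above all CD62Llo arrays, which overlapped one another. Usp18 fell by 0.88 ± 0.17 (SE) in FR2 against FR1 (1.84-fold, adjusted p = 0.00659) and by 0.93 ± 0.17 in FR3 Klrg1- against FR1 (1.91-fold, adjusted p = 0.0017). Between FR2 and FR3 Klrg1- its difference was -0.05, with a 95% interval from -0.41 to 0.3. The first of these calls was lost, with an adjusted p of up to 0.149, when FR1 replicate 1, FR1 replicate 2 or FR2 replicate 1 was left out.

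Irf7, the factor that amplifies interferon production, read 9.18 and 9.18 in FR1, 8.86 and 8.9 in FR2 and 8.45 and 8.57 in FR3 Klrg1-. The groups did not overlap and their means went down at each step, by 0.3 and 0.37, but only the difference across both steps passed, at -0.67 ± 0.12 (1.59-fold lower, adjusted p = 0.00226). Irf9, the DNA-binding partner of Stat2, read 9.21 and 9.35 in FR1, 8.83 and 8.9 in FR2 and 8.88 and 8.73 in FR3 Klrg1-. Its FR1 arrays were the highest, and it fell by 0.47 ± 0.13 across both steps (adjusted p = 0.0352). This call was lost when any array of the first set was left out, with an adjusted p of up to 0.316.
Stat2, which Irf9 brings to DNA, passed in no comparison. It read 8.33 and 8.47 in FR1, 8.4 and 8.61 in FR2 and 8.13 and 7.92 in FR3 Klrg1-, with both CD69+ arrays below the CD69- ones. Its difference was -0.49 ± 0.15 against FR2 (adjusted p = 0.0783) and -0.38 ± 0.15 against FR1 (adjusted p = 0.157).

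From FR1 to FR3 Klrg1- cells, 1 of the 4 sensors of nucleic acid rose and none fell. Of all genes, 4.39% rose and 3.79% fell there. Ifih1 (Mda5), which senses long double-stranded RNA, read 8.21 and 8.2 in FR1, 8.47 and 8.45 in FR2 and 8.87 and 8.79 in FR3 Klrg1-. The groups did not overlap, in the order opposite to Irf7, and Ifih1 rose by 0.62 ± 0.13 from FR1 to FR3 Klrg1- (1.54-fold, adjusted p = 0.00448, and 0.0655 without FR3 Klrg1- replicate 1). Ddx58 (RIG-I), the sensor of short RNA with triphosphate ends, read 9.36 and 9.42, 9.23 and 9.38, and 9.04 and 9.06 in the same groups. Its FR3 Klrg1- arrays were the lowest, yet it did not pass. Zbp1, a sensor of Z-form nucleic acid that triggers cell death, read 9.27 and 9.23, 9.3 and 9.27, and 8.86 and 8.79. Both CD69+ arrays lay below the others, and its differences of -0.46 from FR2 (adjusted p = 0.0501) and -0.42 from FR1 (adjusted p = 0.0523) missed the threshold narrowly. Dhx58 (Lgp2), which tunes the other RNA sensors, read 7.58 and 7.53, 7.53 and 7.3, and 7.68 and 7.61 and did not pass.

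Of 11 genes grouped as effectors on RNA, 4 fell and none rose between FR1 and FR3 Klrg1-, with a median of -0.36. Of all genes, 3.79% fell and 4.39% rose there. The 11 include the nucleotide kinase Cmpk2, which does not itself act on RNA. Oas2, one of the synthetases that make the second messenger for the nuclease RNase L, read 7.56 and 7.3 in FR1, 6.89 and 6.62 in FR2 and 6.36 and 6.03 in FR3 Klrg1-. The 3 groups did not overlap. Oas2 fell by 1.23 ± 0.18 across both steps (2.35-fold, adjusted p = 0.000281), the largest change among the 34 genes in any of the 4 comparisons. It also fell by 0.67 ± 0.18 in FR2 against FR1 (adjusted p = 0.0485), a call that was lost without any 1 array of the first set (adjusted p of up to 0.26), and its further difference of -0.56 in FR3 Klrg1- against FR2 did not pass (adjusted p = 0.1).

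Its relatives did not move as 1 block. Oasl2, a synthetase-like protein with ubiquitin-like domains, read 7.42 and 7.3 in FR1, 6.83 and 6.97 in FR2 and 6.67 and 6.6 in FR3 Klrg1-, again without overlap. It fell by 0.73 ± 0.13 across both steps (1.66-fold, adjusted p = 0.00163). Oas1a, a synthetase with overlapping matches to the response element at its start, read 7.11 and 7.01 in FR1, 7.45 and 7.59 in FR2 and 7.67 and 7.31 in FR3 Klrg1-. Both FR1 arrays were the lowest of this set, and the difference of FR3 Klrg1- from FR1 was 0.43, with an interval from 0.12 to 0.74, which did not pass. Oas3, which makes the longest messenger chains, differed by -0.36, and Oasl1 by -0.36, and neither passed. Eif2ak2 (PKR), the kinase that halts translation on double-stranded RNA, read 7.51 and 7.82 in FR1, 8.1 and 8.06 in FR2 and 8.35 and 8.16 in FR3 Klrg1-. Its arrays lay in the order of Ifih1, with a difference of 0.59 ± 0.18 across both steps and an adjusted p of 0.0581.

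The 3 Ifit genes, of a family in which some products bind foreign RNA and block its translation, each fell in at least 1 comparison of FR3 Klrg1- cells. Ifit3 read 7.21 and 6.83 in FR1, 7.14 and 7 in FR2 and 6.42 and 6.07 in FR3 Klrg1-. The CD69- groups overlapped and both CD69+ arrays lay below them. Ifit3 fell by 0.82 ± 0.17 against FR2 (1.77-fold, adjusted p = 0.0114) and by 0.78 ± 0.17 against FR1 (1.71-fold, adjusted p = 0.00878).
Ifit1 had the same order, at 7.97 and 7.88, 8.01 and 7.96, and 7.56 and 7.46. It fell by 0.48 ± 0.13 against FR2 (adjusted p = 0.043), and its -0.41 against FR1 did not pass (adjusted p = 0.0617). Ifit2 went down at each step, at 9.01 and 9, 8.64 and 8.72, and 8.35 and 8.23, and fell by 0.71 ± 0.13 across both (1.64-fold, adjusted p = 0.0027). For Ifit3 and Ifit2 against FR1, the call was lost without FR3 Klrg1- replicate 2 (adjusted p of 0.15 and 0.0503), and for Ifit3 also without FR1 replicate 1 (0.134). Ifit3 against FR2 was lost without FR2 replicate 1, FR2 replicate 2 or FR3 Klrg1- replicate 2 (up to 0.16), and Ifit1 without any 1 array of the first set (up to 0.312).

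Cmpk2 and Isg20 moved in opposite directions at the second step. Cmpk2, a mitochondrial nucleotide kinase, read 6.5 and 6.67 in FR1, 6.91 and 6.81 in FR2 and 6.28 and 6.29 in FR3 Klrg1-. FR2 was the highest group, and Cmpk2 fell by 0.58 ± 0.13 from FR2 to FR3 Klrg1- (1.49-fold, adjusted p = 0.0157). Isg20, an exonuclease that degrades single-stranded RNA, read 8.67 and 8.7 in FR1, 8.39 and 8.46 in FR2 and 8.95 and 8.91 in FR3 Klrg1-. FR2 was its lowest group, and it rose by 0.51 ± 0.12 from FR2 to FR3 Klrg1- (1.42-fold, adjusted p = 0.0261). Both calls were lost without FR2 replicate 1, FR2 replicate 2, FR3 Klrg1- replicate 1 or FR3 Klrg1- replicate 2, with adjusted p of up to 0.177 for Cmpk2 and 0.232 for Isg20.

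Of 8 genes grouped as effectors on virus particles, entry or assembly, 1 fell and none rose between FR1 and FR3 Klrg1-. Of all genes, 3.79% fell and 4.39% rose in that comparison. The grouping is loose, as the 8 include Samd9l, a suppressor of growth and viral translation. Bst2 (tetherin), which holds budding virus at the cell surface, read 9.24 and 8.92 in FR1, 8.43 and 8.7 in FR2 and 8.29 and 8.46 in FR3 Klrg1-. FR1 was above both other groups, which overlapped, and Bst2 fell by 0.7 ± 0.15 across both steps (1.63-fold, adjusted p = 0.007, and up to 0.111 without FR1 replicate 1 or FR3 Klrg1- replicate 1). Bst2 is also a surface marker of plasmacytoid dendritic cells, the main interferon producers. The 6 of 9 other markers of those cells that were measured averaged 6.69 to 6.78 on the FR1 arrays, 6.64 to 6.67 on the FR2 arrays and 6.59 to 6.6 on the FR3 Klrg1- arrays of the first set, and Siglech, a defining one, read 5.3 to 5.67. Among them Ccr9, a gut homing receptor that T cells also carry, fell from 6.75 and 6.89 in FR1 to 5.13 and 5.59 in FR3 Klrg1-, and the others did not pass. Their part in the Bst2 result was not tested.

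The other 7 of this group did not pass in any comparison. Samd9l, a suppressor of growth and viral translation, read 9.74 and 9.53 in FR1, 9.7 and 9.62 in FR2 and 8.96 and 9.29 in FR3 Klrg1-. The CD69+ arrays were the lowest, with a difference of -0.53 from FR2 (adjusted p = 0.0847). Gbp3, a guanylate-binding GTPase, read 8.84 and 9.11, 9.29 and 9.39, and 9.41 and 9.28, with FR1 lowest and a difference of 0.37 across both steps that did not pass. The dynamin-like GTPases Mx1 and Mx2, the lipid-droplet enzyme Rsad2 (viperin), the ubiquitin ligase family member Trim30a and the surface protein Ly6e lay between -0.09 and 0.41 in that comparison. The ADP-ribosyltransferases Parp9 and Parp14 differed by -0.08 and -0.01.

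Ifi35 and Ifi27, of 5 remaining genes, gave calls of opposite sign. Ifi35, a leucine zipper protein, read 8.66 and 8.75 in FR1, 8.01 and 8.18 in FR2 and 8.05 and 8.1 in FR3 Klrg1-. Like Usp18, it stood apart only in the CD62Lhi cells. It fell by 0.61 ± 0.13 in FR2 (1.52-fold, adjusted p = 0.0149) and by 0.63 ± 0.13 in FR3 Klrg1- (1.55-fold, adjusted p = 0.00534) against FR1, and differed by -0.02 (interval -0.3 to 0.26) between these 2. The FR2 call was lost without FR1 replicate 1, FR1 replicate 2 or FR2 replicate 1 (adjusted p of up to 0.208), and the FR3 Klrg1- call without FR1 replicate 2 or FR3 Klrg1- replicate 1 (up to 0.0645).
Ifi27, a small membrane protein of mitochondria and the nuclear envelope, read 9.48 and 9.32 in FR1, 8.92 and 9.1 in FR2 and 9.97 and 9.82 in FR3 Klrg1-. The groups did not overlap, and FR2 was lowest. Ifi27 rose by 0.88 ± 0.14 from FR2 to FR3 Klrg1- (1.84-fold, adjusted p = 0.00161) and by 0.5 ± 0.14 from FR1 (1.41-fold, adjusted p = 0.0399), the second of which was lost without any 1 array of the first set (up to 0.298). Xaf1, a pro-apoptotic zinc finger protein, and Rtp4, a receptor transport protein, differed by -0.31 and -0.3 from FR1, and Lgals3bp, a secreted glycoprotein, by 0.06, without passing.

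**Figure D3:**
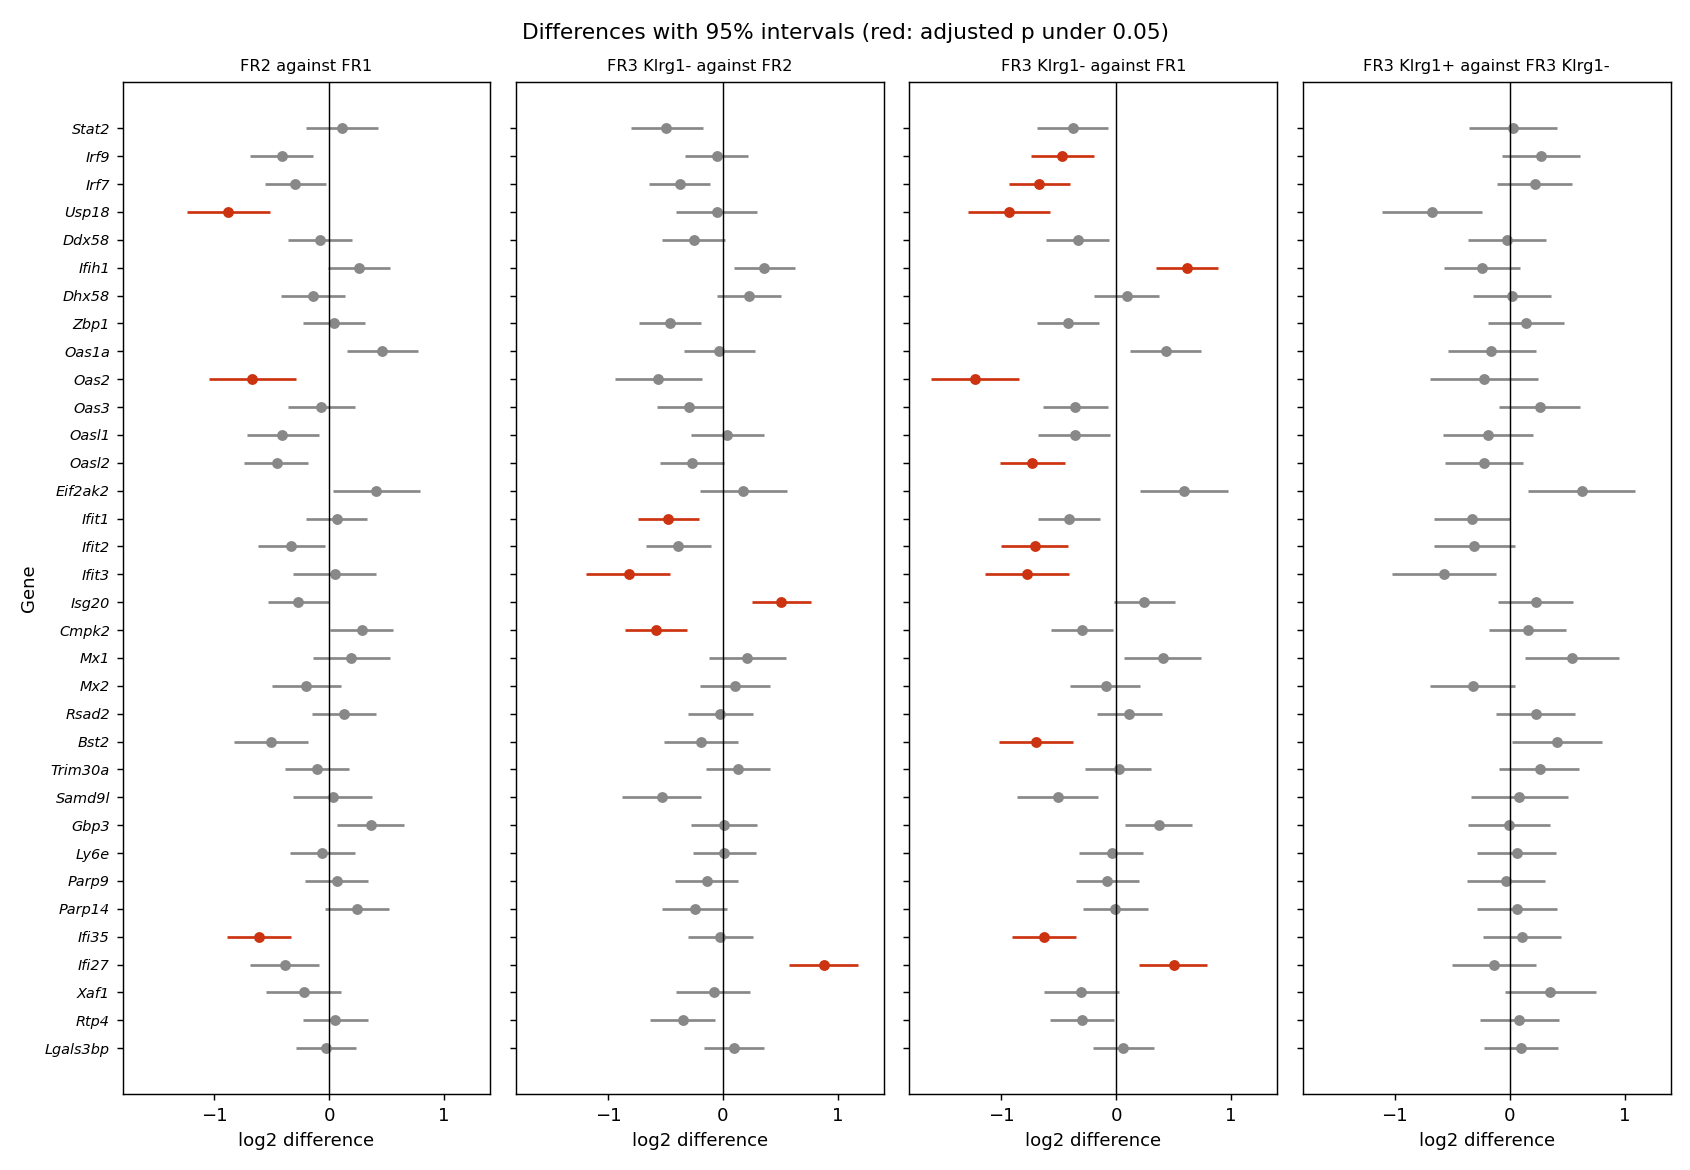
Log2 difference of each of the 34 genes (rows) in the 4 comparisons (panels), with 95% intervals from limma; red marks an adjusted p under 0.05. In FR3 Klrg1- against FR1, 9 red points lie left of 0 and 2 right of it, and no point is red in FR3 Klrg1+ against FR3 Klrg1-.

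Matches to the response element were found among members that fell, rose and did not pass. Of the 9 members that fell between FR1 and FR3 Klrg1-, 7 had a window and 2 of these, Ifit3 and Bst2, held a match. Of the 2 that rose, 1 had a window, and that gene, Ifih1, held a match that did not lie wholly before its start. Of the 23 that did not pass, 15 had a window and 9 held a match. At the second step, Ifit1 and Ifit3 held a match among the 3 that fell. These are counts of letters in short windows, and no test was made on them.

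The comparison of FR3 Klrg1+ with FR3 Klrg1- rests on 1 array against 2 of the second set, and the fit took the spread of that single array from the replicated groups. None of the 34 genes rose or fell by limma's adjusted p, and 3 were higher and 3 lower at an unadjusted p under 0.05. Of all genes, 2.14% rose and 2.82% fell. The median of the 34 genes was 0.06 against 0 for all genes. Of 10 measured macrophage and monocyte markers, 8 were lower in FR3 Klrg1+ (median -0.52), with a mean of 5.31 against 5.6 to 5.74. Among the 10, C1qc differed by -0.81 and Fcgr1 by 0.68. Of 8 conventional dendritic cell markers 7 were higher (median 0.13), with Flt3 at 0.91, and H2-Ab1 was lower, at -0.72. Tcf4, of the plasmacytoid dendritic cell list, differed by -0.78 (3 of 6 lower) and Klrb1c, of the NK cell list, by -0.66 (3 of 5 lower). Tnfrsf18, of the Treg and T cell list, differed by 0.81 (6 of 9 higher). Some of these readings were low, as percentile 25 of all genes was 5.28 to 5.33 on these arrays. Flt3 read 4.81 and 4.85 in FR3 Klrg1-, and C1qc read 5.06 and Klrb1c 5.14 in FR3 Klrg1+. The part of these markers in the members' values was not tested.
Usp18 had the largest difference, at 7.5 in FR3 Klrg1+ against 8.24 and 8.11 in FR3 Klrg1-, which is -0.68 ± 0.2 (interval -1.11 to -0.24, adjusted p = 0.0719). It lay below both Klrg1- arrays. Ifit3 was also below both, at 8.33 against 9.09 and 8.71 (-0.57 ± 0.21, adjusted p = 0.138), and Eif2ak2 above both, at 9.53 against 9.2 and 8.61 (0.63 ± 0.22, adjusted p = 0.118). Without FR3 Klrg1- replicate 3, Eif2ak2 passed (adjusted p = 0.0133), and without replicate 4, Ifit3 passed (adjusted p = 0.044). Mx1, at 6.78 against 6.32 and 6.17, differed by 0.54 with an interval from 0.13 to 0.95, and Bst2, at 8.27 against 7.8 and 7.92, by 0.41 with an interval from 0.02 to 0.8. Irf7 and Irf9, which fell from FR1 to FR3 Klrg1- in the first set, read 7.5 against 7.3 and 7.26, and 8.37 against 8.15 and 8.06.

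Arrays of FR3 Klrg1- were present in each set, and the level of several members differed between them. From the first to the second set 19 of the 34 were higher and 15 lower, with a median difference of 0.07, against 0.02 for all genes. Ifit3 was 2.66 higher in the second set, and Samd9l was 1.67 higher. Lgals3bp differed by -1.56 and Irf7 by -1.22. These 4 were the members at least 1 apart, and 10.3% of all genes were. The sets were told apart by the arrays' own values, so these differences are a description with no test. Without the set in the fit, Ifit3 in FR3 Klrg1- would read 0.51 above FR2 and 0.55 above FR1 (adjusted p of 0.827 and 0.761), the opposite sign to that within the set.

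**Figure D4:**
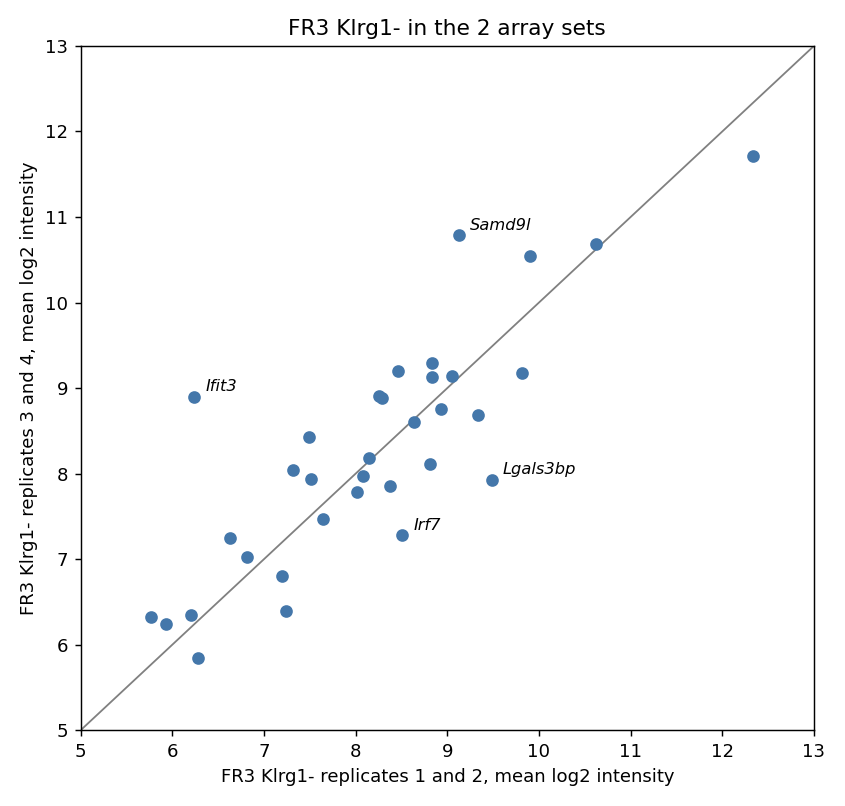
Mean log2 intensity of each of the 34 genes in FR3 Klrg1- replicates 1 and 2 (first set, x axis) and replicates 3 and 4 (second set, y axis); the line marks equal values. Ifit3 and Samd9l lie above the line, by 2.66 and 1.67, and Lgals3bp and Irf7 below it.

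The ligands and receptors of the pathway were read from further lists. Calls of these lists are given from the main fit alone, with no array left out. Of the type I interferon ligands, 12 of 14 were measured, and none passed limma's test in any comparison, with at most 1 higher and 2 lower at an unadjusted p under 0.05. Ifnb1, interferon beta, read 5.09 to 5.45 on the grouped arrays.
Of the receptors and their signalling proteins, 9 of 10 were measured. The type I receptor chain Ifnar1 read 10.5 and 10.71 in FR1, 10.47 and 10.46 in FR2 and 10.35 and 10.37 in FR3 Klrg1- of the first set, and Ifnar2 read 9.39 and 9.4, 9.51 and 9.37, and 9.63 and 9.67. Neither chain passed in any comparison, and both differed by set, with Ifnar1 at 9.16 and 9.32 and Ifnar2 at 10.5 and 10.34 in the other FR3 Klrg1- arrays. The chains of the type II receptor, which binds interferon gamma, did move. Ifngr2 fell by 1.16 ± 0.14 in FR2 (adjusted p = 0.000107) and by 1.41 ± 0.14 in FR3 Klrg1- (adjusted p = 5.89e-06) against FR1, and Ifngr1 fell by 0.69 ± 0.14 in FR3 Klrg1- against FR1 (adjusted p = 0.00349) and by 0.81 against FR2 (adjusted p = 0.00233). Jak2, a kinase of that receptor, rose by 0.74 ± 0.14 in the same comparison (adjusted p = 0.0022), so 1 of the 9 rose and 2 fell there, where 4.39% of all genes rose and 3.79% fell.

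Of the sensors and factors that induce interferon, 16 were measured. Between FR1 and FR3 Klrg1-, 3 of these rose and 3 fell, where 4.39% of all genes rose and 3.79% fell. Tlr7, the endosomal sensor of single-stranded RNA, read 7.82 and 7.78 in FR1, 7.18 and 6.78 in FR2 and 6.27 and 6.2 in FR3 Klrg1-. The groups did not overlap, and Tlr7 fell by 1.56 ± 0.17 across both steps (adjusted p = 1.81e-05). It passed at each single step too, at -0.81 (adjusted p = 0.0122) and -0.75 (adjusted p = 0.0183). On the 1 FR3 Klrg1+ array Tlr7 read 4.99, against 6 and 5.51 in FR3 Klrg1- of the second set (-0.77 ± 0.21). Percentile 25 of all genes on that FR3 Klrg1+ array was 5.33, so its reading there was low. Unc93b1, which carries such receptors to endosomes, rose by 0.76 (adjusted p = 0.00169) and Irf5, a factor downstream of them, by 0.54 (adjusted p = 0.0127) from FR1 to FR3 Klrg1-. Irf5 also rose by 0.62 from FR1 to FR2 (adjusted p = 0.0104). Ikbke, a kinase that activates interferon regulatory factors, fell by 0.59 (adjusted p = 0.00718). Cgas, the sensor of cytosolic DNA, rose by 0.96 ± 0.17 in FR3 Klrg1+ (adjusted p = 0.00637). Among 11 measured negative regulators of the pathway, Samhd1, which depletes nucleotides, was the 1 gene that passed. It fell by 0.52 ± 0.12 from FR2 to FR3 Klrg1- (adjusted p = 0.0248), where 1.94% of all genes fell and 2.81% rose.

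A further list of type I interferon-induced genes, of which 36 of 45 were measured, had 1 gene that rose and 6 that fell from FR1 to FR3 Klrg1-, with a median of -0.22 against 0.02 for all genes, of which 4.39% rose and 3.79% fell. Slfn1, a Schlafen family growth regulator, fell by 1.02 ± 0.13 (adjusted p = 0.000101), Ifitm3, a membrane protein that blocks virus entry, by 1.02 ± 0.17 (adjusted p = 0.000817), and Trim25, a ubiquitin ligase that acts on Ddx58, by 0.79 ± 0.14 (adjusted p = 0.0014). Lgals9, galectin-9, fell by 0.54 (adjusted p = 0.0128). At the first step 3 fell and none rose (median -0.07), with Ifitm3 at -0.94, Slfn1 at -0.71 and Psmb9, an immunoproteasome subunit, at -0.51. Of all genes, 2.3% fell and 1.96% rose at this step. At the second step 2 rose and 2 fell (median -0.08), where 2.81% of all genes rose and 1.94% fell. Ifi203, a nuclear protein of the Ifi200 family, fell by 0.6 and Sp100, a nuclear body protein, by 0.48, while Psmb9 rose by 0.51 and Ifitm2 by 0.5. In FR3 Klrg1+, Parp12 rose by 0.74 and Daxx fell by 0.72 (median 0.01).
Genes of the interferon gamma response, of which 17 of 24 were measured, included 4 that rose and none that fell from FR1 to FR3 Klrg1-, where 4.39% of all genes rose and 3.79% fell. Their median was 0.14, with 9 above and 8 below 0. Cxcl10, a chemokine for cells with the receptor Cxcr3 that both interferon types induce, read 7.29 and 7.75 in FR1, 8.93 and 9.45 in FR2 and 10.26 and 10.61 in FR3 Klrg1-. The 3 groups did not overlap, and Cxcl10 rose by 2.91 ± 0.2 across both steps (adjusted p = 1.99e-07), by 1.67 at the first and by 1.24 at the second. Cd74, the invariant chain of MHC class II, rose by 0.83, Cd274 (PD-L1) by 0.53 and Gbp5, a GTPase of the inflammasome, by 0.52. At the first step Iigp1, an immunity-related GTPase, rose by 0.65 beside Cxcl10, and at the second Gbp5 rose by 0.63. The list's median was 0.11 at the first step and -0.03 at the second, where 6 genes lay above and 11 below 0. Against the FR3 Klrg1- arrays of the second set, the 1 FR3 Klrg1+ array differed by 0.7 for Gbp7 and 0.64 for Gbp8. It differed by -0.72 for H2-Ab1 and -0.66 for Iigp1. The list's median there was -0.06, with 7 genes above and 10 below 0.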

How the data were processed

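RNA of sorted mouse Tregs was amplified from 20 to 50 ng for Affymetrix Mouse Gene ST 1.0 arrays, per the labels' protocols. The deposited values are log2 intensities, made with RMA (background correction, normalization and summary of probes) per the submitters' processing notes. Its version, and whether all arrays were normalized together, are not given in the sources used here. Of 35556 probe sets, 21789 had 1 gene symbol in the platform table, 1621 several and 12146 were not listed. The brightest probe set per gene gave 19938 genes, and no intensity filter was applied.

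Of 10 arrays, 9 were grouped by their marker labels. The remaining array, titled FR3 with the marker text of FR1, entered no comparison. limma 3.58.1 in R 4.3.3 was fitted once over the 9 arrays with group and array set as terms, with Benjamini-Hochberg adjustment over 19938 genes at 0.05. Intervals are at 95%. The fit was first tested on simulated data with known changes.

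The genes, the further lists and the array sets were chosen with earlier results of these data known. Every member is accounted for. Those described in full are the ones past the threshold in at least 1 comparison and Stat2, Irf9, Irf7 and Usp18. Genes of further lists were named where they passed, up to 4 of a list in a comparison, by adjusted p. Promoter windows and their coordinates are RefSeq's, GRCm38.p6. The motifs were matched without mismatches. Precision is limited by the few arrays.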

Additional observations from a re-analysis of the deposited data

Results flagged for a closer look

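Ddx58 read 9.23 on FR3 Klrg1- replicate 3, while the other 3 FR3 Klrg1- arrays read 9.04, 9.06 and 9.05. The gap to the nearest array was 0.904 of the group's range, beyond the critical value for 4 arrays. Chance flags about 1 in 20 such groups, and the 4 arrays span both array sets.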

How the results depend on the processing

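The number of the 34 genes called was 3 in FR2 against FR1, 5 in FR3 Klrg1- against FR2, 11 in FR3 Klrg1- against FR1 and 0 in FR3 Klrg1+ against FR3 Klrg1-. In that order, it was 0, 0, 4 and 0 without the array set as a term, and 0, 1, 7 and 0 with every row of the table tested. It was 6, 8, 15 and 1 with an intensity trend in the variance and 7, 9, 16 and 1 without genes under percentile 40, where the 1 was Usp18, lower in Klrg1+. It was 5, 9, 15 and 0 in the holding set alone, 3, 9, 14 and 0 with only the 2 groups' arrays, 4, 10, 15 and 0 with array weights, 5, 4, 11 and 0 with arrays centred on their median, 2, 6, 12 and 0 after quantile normalization and 3, 6, 12 and 0 with the mean of a gene's probe sets. Requiring an absolute log2 difference of at least 1 left 0, 0, 1 (Oas2) and 0. Leaving out 1 array at a time gave 0 to 5, 1 to 9, 6 to 15 and 0 to 1. Ifit3 changed sign without the set term, at 0.51 against FR2 and 0.55 against FR1, since the term removes its 2.66 difference between sets. The replicate number as a block gave 3, 4, 10 and 0. The numbers were not taken to pair the arrays, since the correlation of same-numbered deviations was 0.181 for FR1 with FR2, 0.144 for FR1 with FR3 Klrg1- and 0.023 for FR2 with FR3 Klrg1-. Oas2 and Usp18 in FR3 Klrg1- against FR1 passed under each of these settings except that Usp18 failed the requirement of at least 1. With 1 array in FR3 Klrg1+ and 2 in each other group of a set, the intervals are wide, and a difference that did not pass may still be present.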

Other observations

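The array left out of the groups correlated at 0.973 to 0.975 with the second array set and at 0.904 to 0.917 with the first. Of the 34 genes, 18 lay within the range of the grouped arrays of the second set, 8 above it and 8 below. Oas1a read 7.6 on it against 8.27 to 8.51, Irf7 7.96 against 7.26 to 7.5, Dhx58 7.05 against 7.42 to 7.51, Ifi35 7.62 against 7.9 to 8.08 and Oas2 6.86 against 6.1 to 6.6. Its Tlr7 read 4.14, below the 4.99 to 6 of the grouped arrays of that set.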
